A study of Mus musculus with 8 samples.

Results

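The genes described are 10 that mark the cartilage and tendon lineages: the transcription factors *Sox9*, *Sox5* and *Sox6*, the matrix genes *Acan*, *Comp*, *Prg4* and *Cilp*, and the tendon genes *Scx*, *Tnmd* and *Mkx*. They were chosen by symbol, with collagens left out, and all 10 are among the 24346 genes of the deposited RPKM table. RPKM is a read number scaled to transcript length and library depth, so that levels of different genes can be set side by side. The exact form of the library scaling is not given in the sources used here. The study asked how mesenchymal stem/stromal cells (MSCs) that lack *Dnmt3l*, a cofactor of the de novo DNA methyltransferases, differ from those of their littermates before and during osteogenic differentiation.

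WT and *Dnmt3l* KO MSCs were each sampled in the undifferentiated state and while differentiating, which gave 4 groups with 2 RNA libraries each (8 in all). WT cells came from Dnmt3l+/+ mice and KO cells from littermates with both copies of the tmEnls allele, which is carried in every cell and not restricted to a tissue. All mice were adult females of the C57BL/6 strain. Bone marrow cells of several mice were mixed by genotype, depleted of cells with the leukocyte antigens CD11b and CD45, and grown to passage 4. Differentiating cells had been for 3 days in induction medium with 0.1 μM dexamethasone, 10 mM β-glycerophosphate and 50 μM ascorbic acid 2-phosphate. That medium also held less serum than the growth medium, and the paper describes adding it once cells were confluent. At what time and density undifferentiated cells were harvested is not given in the sources used here. The effects of supplements, serum, cell density and time in culture cannot be told apart. Whether replicate libraries stand for separate cultures is not given in the sources used here, so p-values measure only the spread between these libraries, which may be technical.

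SOX9 is the master transcription factor of cartilage. With its partners SOX5 and SOX6 it switches on aggrecan (*Acan*) and other genes of the cartilage matrix, while scleraxis (*Scx*) and Mohawk (*Mkx*) do the same for tendon, where tenomodulin (*Tnmd*) is the marker of mature cells. Bone marrow MSCs can be driven to cartilage, bone or fat in culture, and dexamethasone is a component of the media for all of these fates.

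The label check held in every library. *Dnmt3l* (mm10, chromosome 10, 78041947 to 78063622) was at 1.56 and 1.09 RPKM in undifferentiated and 0.845 and 0.83 RPKM in differentiating WT libraries, and it was listed at 0 in the 4 KO libraries, where 3 reads would have given 0.0276 to 0.0385 RPKM. The paper reports that reads of the gene in WT MSCs covered only its later exons. It also reports that the canonical protein was not detected in MSCs, so these values do not stand for the full-length cofactor. Depth, inferred from the step size of low values, was 48.2 to 67.1 M scaled reads per library. The 12 stromal markers of cultured MSCs summed to 1660 to 4010 RPKM in a library, whereas the endothelial markers *Pecam1*, *Cdh5*, *Tie1* and *Cldn5* and the muscle genes *Myod1*, *Myf5*, *Myog*, *Pax7*, *Myh3* and *Ckm* stayed below 0.1 RPKM throughout. Other genes of these lists did not: *Tek* was at 0.358 to 4.13 RPKM, *Egfl7* at 1.05 to 2.69, *Acta1* at 1.64 to 48.2 and *Des* at 0.746 to 1.73, while *Kdr* reached 0.584 and *Esam* 1.18. Of the 10 genes, 9 averaged 0.1 RPKM or more and entered the limma fit with 15342 genes in all; *Acan* did not.

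With osteogenic induction most of the 9 tested genes rose, while *Scx* fell strongly. The matrix genes *Comp*, *Prg4* and *Cilp*, the transcription factors *Sox9* and *Sox5*, and *Tnmd* rose in both genotypes, *Scx* fell in both, *Sox6* and *Mkx* changed by less than 2-fold, and *Acan* stayed at or below 0.0512 RPKM. Of the 9 tested genes, 7 passed an adjusted p of 0.05 together with a 2-fold limit in WT MSCs, where 14.3% of all tested genes did. Of these, 6 were higher, beside 9.69% of all genes, and 1 was lower, beside 4.63%. In *Dnmt3l* KO MSCs 6 of 9 passed both limits, against 22.9% of all tested genes, with 5 higher (13.0% of all genes) and 1 lower (9.87%). On the adjusted p alone all 9 passed in each genotype, which 64.4% of all genes did in WT and 72.9% in KO. These were 7 higher and 2 lower genes in each genotype, beside 31.6% and 32.8% of all genes in WT and 36.4% and 36.6% in KO. The median log2 change of the 9 genes was 1.97 in WT and 2.01 in KO, beside a median of 0.0 over all tested genes in each. Log2 changes are of RPKM + 0.1 and therefore understate the change of genes with low levels. In RNA of whole cultures, fewer cells of a type and less RNA per cell cannot be told apart.

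**Figure D1:**
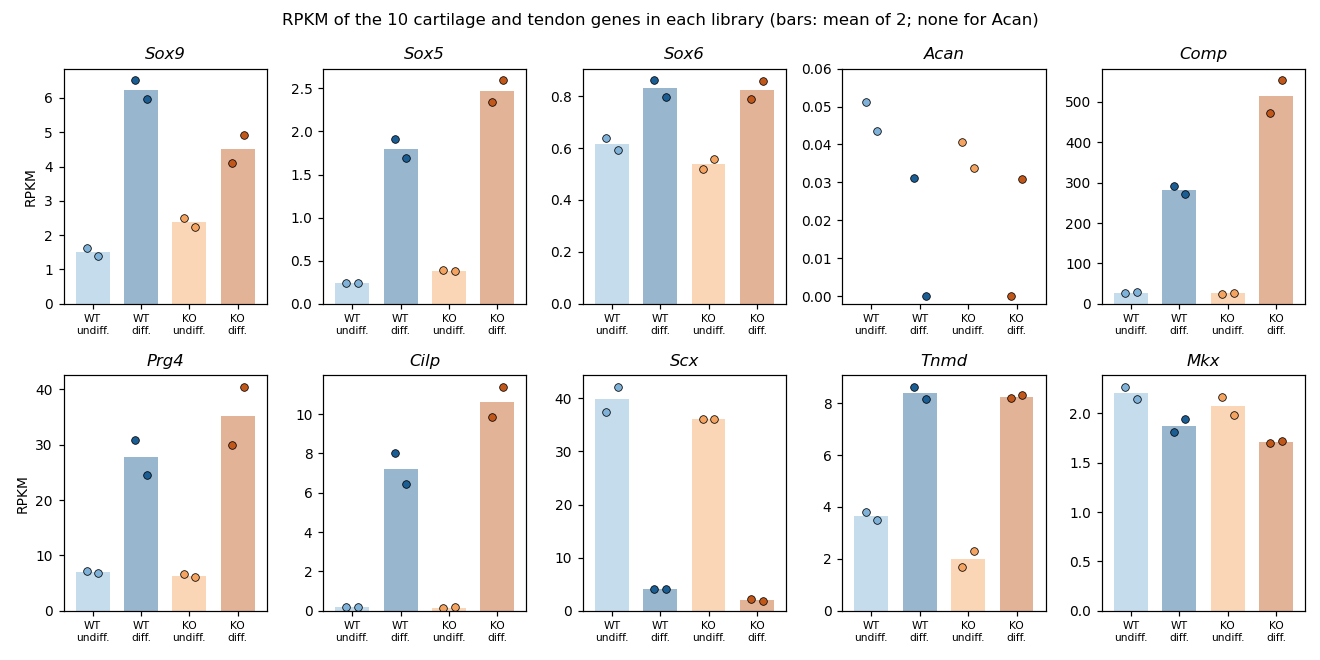
RPKM (linear axes from 0, a separate scale for each gene) of the 10 genes in each library. Points are single libraries, bars are means of 2 libraries, and *Acan* has no bar because single libraries were listed at 0. *Comp* reaches 555 RPKM in differentiating KO MSCs while *Scx* drops from between 36.1 and 42.2 to at most 4.04 RPKM.

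Promoter sequences of 4 of the genes are shown because they contrast genes that rose (*Cilp*, *Tnmd*, *Sox5*) with the cartilage gene that stayed near 0 (*Acan*). Each is the 250 bases upstream of a RefSeq transcript start (GRCm38.p6, the mm10 assembly), written 5′ to 3′ on the gene's strand. Capitals mark matches, on either strand, to ACAAT, the core letters bound by SOX factors (its reverse complement is ATTGT), or to CANNTG, the E-box bound by basic helix-loop-helix factors such as scleraxis. The regions are chr9:65264930-65265179 (+) for *Cilp*, chrX:133850758-133851007 (+) for *Tnmd*, chr6:143947107-143947356 (-) for *Sox5* and chr7:79052976-79053225 (+) for *Acan*.
Cilp: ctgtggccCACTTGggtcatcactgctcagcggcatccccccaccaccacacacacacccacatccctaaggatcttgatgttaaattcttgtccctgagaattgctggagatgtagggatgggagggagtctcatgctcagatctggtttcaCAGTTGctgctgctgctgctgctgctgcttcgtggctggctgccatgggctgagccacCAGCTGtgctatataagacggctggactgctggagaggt
Tnmd: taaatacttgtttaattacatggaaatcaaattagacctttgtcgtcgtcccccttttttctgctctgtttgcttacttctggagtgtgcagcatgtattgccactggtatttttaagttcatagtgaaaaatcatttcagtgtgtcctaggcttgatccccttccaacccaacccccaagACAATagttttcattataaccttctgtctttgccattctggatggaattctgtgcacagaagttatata
Sox5: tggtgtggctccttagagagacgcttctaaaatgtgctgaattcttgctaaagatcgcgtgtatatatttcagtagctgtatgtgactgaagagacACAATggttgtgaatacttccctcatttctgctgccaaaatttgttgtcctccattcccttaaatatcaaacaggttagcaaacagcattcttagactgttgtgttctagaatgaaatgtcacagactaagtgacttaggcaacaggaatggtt
Acan: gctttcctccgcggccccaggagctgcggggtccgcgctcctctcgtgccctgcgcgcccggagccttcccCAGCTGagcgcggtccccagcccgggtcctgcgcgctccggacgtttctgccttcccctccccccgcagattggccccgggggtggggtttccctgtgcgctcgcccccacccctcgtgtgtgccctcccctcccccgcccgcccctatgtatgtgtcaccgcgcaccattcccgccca
The window of *Cilp* held 3 E-boxes, starting 242, 97 and 39 bases upstream, and no SOX core. That of *Tnmd* held 1 SOX core at 69 bases and no E-box, that of *Sox5* held 1 SOX core at 154 bases and no E-box, and that of *Acan* held 1 E-box at 179 bases and no SOX core. Over 32851 mouse windows of the same length, 27.7% held a SOX core and 66.2% an E-box, so a match is common and is given as a description of the letters only. The windows also differed in CG dinucleotides, the sites of DNA methylation: *Acan* had 26, more than 90.4% of all windows, whereas *Cilp* and *Sox5* had 3 and *Tnmd* had 2, below the median of 6. The *Sox5* window belongs to a transcript that starts inside the annotated gene, and 28 bases of the *Tnmd* window lie in an exon of the GENCODE annotation. *Sox6* has several windows in the table and *Sox9*, *Comp*, *Prg4*, *Scx* and *Mkx* are not shown.

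Among the SOX factors, *Sox9* (chromosome 11, 112782224 to 112787760, + strand) was the only one of the 9 tested genes whose response to induction differed more than 2-fold between genotypes. It was at 1.63 and 1.39 RPKM in undifferentiated WT, 6.53 and 5.96 in differentiating WT, 2.49 and 2.25 in undifferentiated KO and 4.09 and 4.91 in differentiating KO MSCs. The KO libraries were thus the higher ones before induction and the lower ones after it, with no overlap in either state. Mean *Sox9* rose 4.13-fold with induction in WT (log2 change 1.98, SE 0.12, limma with Benjamini-Hochberg adjusted p = 3.5e-05) and 1.9-fold in KO (0.89, SE 0.12, adjusted p = 0.00066). The KO response was smaller by 1.08 on the log2 scale in the interaction test (95% interval of the KO minus WT response from -1.5 to -0.67, adjusted p = 0.0049). *Sox9* was higher in KO than in WT by 0.61 (SE 0.12, adjusted p = 0.013) before induction and differed by -0.47 (SE 0.12, adjusted p = 0.024) after it. Both of these genotype differences missed the threshold when single libraries were left out: before induction the adjusted p was 0.0738 without WT replicate 2 and 0.0802 and 0.0503 without KO replicates 1 and 2, and after induction it was 0.117 and 0.0737 without WT replicates 1 and 2 and 0.0933 without KO replicate 1. The interaction passed the adjusted p throughout, with at most 0.0263.

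*Sox5* (chromosome 6, 143828425 to 144781977, - strand), which codes for a SOX protein with no activation domain of its own that helps SOX9 to bind enhancers, started low and rose in both genotypes. Its levels were 0.236 and 0.239 RPKM in undifferentiated WT, 1.91 and 1.69 in differentiating WT, 0.392 and 0.376 in undifferentiated KO and 2.34 and 2.6 in differentiating KO MSCs. Each differentiating library lay above each undifferentiated one, and the KO libraries lay above the WT libraries in both states. The rise was 7.61-fold of the mean in WT (log2 change 2.5, SE 0.1, limma adjusted p = 6.6e-06) and 6.43-fold in KO (2.41, SE 0.1, adjusted p = 4.2e-06), and the difference of the responses was -0.09 (95% interval -0.43 to 0.25, adjusted p = 0.65). *Sox5* was higher in KO by 0.52 (SE 0.1, adjusted p = 0.012) before and by 0.43 (SE 0.1, adjusted p = 0.017) after induction. Before induction that call was lost without any 1 of the 4 libraries compared (adjusted p = 0.0504 and 0.0541 without WT replicates 1 and 2, 0.062 and 0.0506 without KO replicates 1 and 2), and after it without WT replicate 2 (0.0881) or KO replicate 2 (0.0678). The antisense transcript *Sox5os3*, on the opposite strand within the gene and with no shared exon, was listed at 0 in both undifferentiated WT libraries, at 0.362 and 0.333 RPKM in differentiating WT, at 0.0592 and 0.0288 in undifferentiated KO and at 0.255 and 0.72 in differentiating KO; reads were aligned by strand.

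*Sox6* (chromosome 7, 115470872 to 116038796, - strand), the closest relative of *Sox5*, moved little. It was at 0.638 and 0.593 RPKM in undifferentiated WT, 0.863 and 0.796 in differentiating WT, 0.52 and 0.556 in undifferentiated KO and 0.788 and 0.858 in differentiating KO MSCs. The states did not overlap within a genotype, and the genotypes overlapped after induction. It rose by 0.38 on the log2 scale in WT (SE 0.1, limma adjusted p = 0.015) and by 0.53 in KO (SE 0.1, adjusted p = 0.0028), that is 1.35-fold and 1.53-fold of the means. These small changes depended on scaling: under quantile normalization they came to 0.073 (adjusted p = 0.512) and 0.229 (adjusted p = 0.0616), and the WT call was also lost without undifferentiated WT replicate 2 (0.0657) or differentiating WT replicate 1 (0.0697). The KO minus WT difference was -0.17 before (95% interval -0.4 to 0.07, adjusted p = 0.24) and -0.01 after induction (-0.25 to 0.23, adjusted p = 0.95).

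The SOX5 and SOX6 proteins can stand in for each other, and the balance of their transcripts turned over with induction. *Sox5* made up 27.0% and 28.7% of the summed *Sox5* and *Sox6* RPKM in undifferentiated WT libraries and 68.9% and 68.0% in differentiating ones. In KO libraries its share was 43.0% and 40.3% before and 74.8% and 75.2% after induction. All 4 groups were separate, with *Sox6* the larger in every undifferentiated and *Sox5* in every differentiating library. Relative to the sum of both partners, *Sox9* stood at 1.87 and 1.67 in undifferentiated WT and 2.35 and 2.39 in differentiating WT, whereas in KO it went from 2.72 and 2.41 to 1.31 and 1.42. These ratios of RPKM values are descriptions and were not tested.

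**Figure D2:**
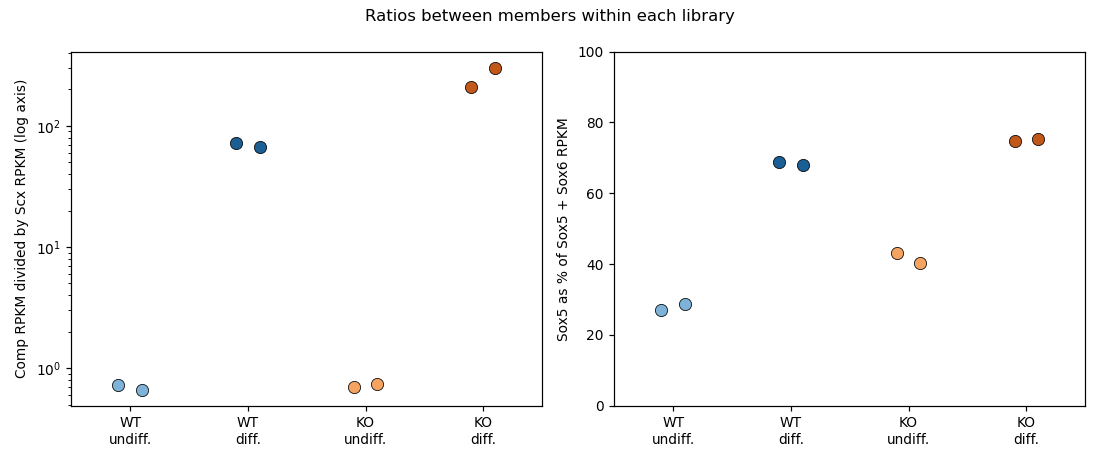
Ratios between genes within each library, one point per library, for the 4 groups. Left, *Comp* divided by *Scx* RPKM on a log axis, below 1 in all undifferentiated and between 66.9 and 302 in all differentiating libraries; right, *Sox5* as a percentage of *Sox5* plus *Sox6* RPKM, from 27.0% to 75.2%.

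Of the matrix genes, *Comp* (chromosome 8, 70373558 to 70382066, + strand) carried the largest amount of RNA. It codes for cartilage oligomeric matrix protein, a glycoprotein that binds collagen fibres in cartilage, tendon and ligament. Its levels were 27.2 and 28.1 RPKM in undifferentiated WT, 292 and 271 in differentiating WT, 25.4 and 26.6 in undifferentiated KO and 473 and 555 in differentiating KO MSCs. The undifferentiated libraries lay close together, and both differentiating KO libraries lay above both differentiating WT libraries. The mean rose 10.2-fold in WT (log2 change 3.34, SE 0.08, limma adjusted p = 1.5e-06) and 19.8-fold in KO (4.3, SE 0.08, adjusted p = 3.4e-07). The responses differed by 0.96 (SE 0.12, 95% interval 0.67 to 1.24, adjusted p = 0.0023). Before induction the KO minus WT difference was -0.09 (SE 0.08, adjusted p = 0.43), and after it KO was higher by 0.86 (SE 0.08, adjusted p = 0.0013), a 1.83-fold difference of the means that passed the adjusted p under every alternative tried (at most 0.0321). With induction *Comp* moved from rank 3052 to rank 301 among the genes of WT MSCs by mean RPKM, and from 3180 to 178 in KO MSCs.

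*Prg4* (chromosome 1, 150449412 to 150466165, - strand), which codes for lubricin, the lubricant of joint surfaces and tendon sheaths, was at 7.15 and 6.8 RPKM in undifferentiated WT, 30.8 and 24.6 in differentiating WT, 6.63 and 6.03 in undifferentiated KO and 30.0 and 40.5 in differentiating KO MSCs. The differentiating libraries of the genotypes overlapped, because KO replicate 1 lay below WT replicate 1. *Prg4* rose 3.98-fold in WT (log2 change 1.97, SE 0.16, limma adjusted p = 0.00013) and 5.57-fold in KO (2.44, SE 0.16, adjusted p = 3e-05), and the responses differed by 0.48 (SE 0.23, 95% interval -0.09 to 1.05, adjusted p = 0.16). KO minus WT was -0.14 (SE 0.16, adjusted p = 0.55) before and 0.34 (SE 0.16, adjusted p = 0.15) after induction. Without differentiating KO replicate 1 the latter became 0.553 (adjusted p = 0.0404) and the difference of the responses 0.693 (adjusted p = 0.0436), so that this library decided both calls. The end of *Prg4* overlaps exons of *Tpr* on the opposite strand. *Tpr* was between 37.5 and 47.0 RPKM and was lower in each differentiating than in each undifferentiated library, the opposite direction to *Prg4*.

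*Cilp* (chromosome 9, 65265180 to 65280605, + strand), which codes for cartilage intermediate layer protein, a matrix protein that binds transforming growth factor beta, showed the largest fold change of the set. It was at 0.18 and 0.197 RPKM in undifferentiated WT, 8.0 and 6.43 in differentiating WT, 0.115 and 0.178 in undifferentiated KO and 9.88 and 11.4 in differentiating KO MSCs. Undifferentiated levels were low but above the 0.0113 to 0.0158 RPKM that 3 reads would give, and the genotypes did not overlap in either state. The mean rose 38.2-fold in WT (log2 change 4.65, SE 0.16, limma adjusted p = 4.6e-06) and 72.3-fold in KO (5.45, SE 0.16, adjusted p = 1.5e-06). KO minus WT was -0.24 (SE 0.16, adjusted p = 0.31) before induction and 0.56 (SE 0.16, adjusted p = 0.038) after it, and the responses differed by 0.79 (SE 0.23, 95% interval 0.23 to 1.36, adjusted p = 0.039). Both of the last calls were marginal. After induction, the genotype call was lost without either replicate of undifferentiated WT (0.0679 and 0.0677), of differentiating WT (0.0514 and 0.191) or of differentiating KO (0.0662 and 0.173). The interaction was lost without either replicate of undifferentiated WT (0.086 and 0.11), replicate 2 of differentiating WT (0.118), replicate 1 of undifferentiated KO (0.0983) or either replicate of differentiating KO (0.0582 and 0.113).

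*Acan* (chromosome 7, 79053483 to 79115099, + strand), the gene of aggrecan, the large proteoglycan that gives cartilage its stiffness, was close to 0 throughout. It was at 0.0512 and 0.0436 RPKM in undifferentiated WT, 0.0312 and 0 in differentiating WT, 0.0406 and 0.0338 in undifferentiated KO and 0 and 0.031 in differentiating KO MSCs. Each of the 4 undifferentiated libraries was higher than each of the 4 differentiating ones, although a value of 0 in this table can be a failed estimate. In the deepest and shallowest libraries 3 reads would give 0.00625 and 0.0087 RPKM, so that the 6 values above 0 lay above this floor, which covers counting error only. With the filter on low values removed, limma gave adjusted p-values of 0.143 and 0.262 for induction in WT and KO and 0.742 and 1 for genotype before and after induction.

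Tendon genes moved in opposite directions. *Scx* (chromosome 15, 76457452 to 76459458, + strand), whose product is the transcription factor of tendon progenitors, was the most abundant of the 10 genes before induction. It was at 37.5 and 42.2 RPKM in undifferentiated WT, 4.04 and 4.04 in differentiating WT, 36.1 and 36.2 in undifferentiated KO and 2.28 and 1.84 in differentiating KO MSCs. All differentiating libraries lay far below all undifferentiated ones, and the KO libraries below the WT libraries in each state. Mean *Scx* fell to a level 9.87-fold lower in WT (log2 change -3.27, SE 0.1, limma adjusted p = 3.2e-06) and 17.6-fold lower in KO (-4.08, SE 0.1, adjusted p = 8e-07). The responses differed by -0.81 (SE 0.14, 95% interval -1.16 to -0.46, adjusted p = 0.0076). Before induction the genotypes differed by -0.14 (SE 0.1, adjusted p = 0.34), and after it *Scx* was lower in KO (-0.95, SE 0.1, adjusted p = 0.0017), 1.96-fold by the means, a call kept under every alternative (adjusted p at most 0.0334). *Scx* lies in an intron of *Bop1*, a ribosome biogenesis gene on the opposite strand, with no shared exon. *Bop1* was at 26.0 and 26.5 RPKM in undifferentiated WT, 14.7 and 15.3 in differentiating WT, 31.6 and 31.1 in undifferentiated KO and 13.4 and 11.4 in differentiating KO MSCs, so it was lower after induction as well, by a smaller factor.

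*Tnmd* (chromosome X, 133850980 to 133865577, + strand), a membrane protein of mature tendon cells whose expression in tendon depends on scleraxis, went the other way. Its levels were 3.82 and 3.49 RPKM in undifferentiated WT, 8.64 and 8.15 in differentiating WT, 1.7 and 2.3 in undifferentiated KO and 8.22 and 8.3 in differentiating KO MSCs. The KO libraries lay below the WT libraries before induction and within their range after it. *Tnmd* was lower in KO by 0.85 on the log2 scale before induction (SE 0.13, limma adjusted p = 0.0064), 1.83-fold by the means, and this passed the adjusted p under every alternative (at most 0.0432). After induction the difference was -0.02 (95% interval -0.35 to 0.3, adjusted p = 0.92). The rise was 2.3-fold in WT (log2 change 1.18, SE 0.13, adjusted p = 0.00047) and 4.13-fold in KO (2.01, SE 0.13, adjusted p = 2.8e-05). The responses differed by 0.83 (SE 0.19, 95% interval 0.37 to 1.29, adjusted p = 0.017), a call lost without undifferentiated WT replicate 1 (0.0627), differentiating WT replicate 2 (0.066) or differentiating KO replicate 2 (0.0538).

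*Mkx* (chromosome 18, 6934518 to 7004780, - strand), a homeobox gene that promotes tendon matrix production, was nearly level. It was at 2.27 and 2.15 RPKM in undifferentiated WT, 1.81 and 1.94 in differentiating WT, 2.17 and 1.98 in undifferentiated KO and 1.7 and 1.72 in differentiating KO MSCs. The genotypes overlapped before induction. The log2 change with induction was -0.23 in WT (SE 0.07, limma adjusted p = 0.03) and -0.26 in KO (SE 0.07, adjusted p = 0.016). The WT value missed the threshold without undifferentiated WT replicate 1 (0.132) or 2 (0.0591) or differentiating WT replicate 1 (0.143), and the KO value without undifferentiated KO replicate 1 (0.085) or differentiating KO replicate 1 (0.0579). KO minus WT was -0.09 (95% interval -0.26 to 0.09, adjusted p = 0.39) before and -0.12 (-0.3 to 0.05, adjusted p = 0.22) after induction.

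The ratio of *Comp* to *Scx* gathers the opposite moves in a single value per library. It was 0.726 and 0.665 in undifferentiated WT and 0.702 and 0.735 in undifferentiated KO, and 72.4 and 66.9 in differentiating WT and 208 and 302 in differentiating KO. The genotypes overlapped before induction and were separate after it. The ratio of *Tnmd* to *Scx* was 0.102 and 0.0827 in undifferentiated WT, 2.14 and 2.02 in differentiating WT, 0.047 and 0.0635 in undifferentiated KO and 3.61 and 4.51 in differentiating KO. *Scx* exceeded *Mkx* by 16.5 to 19.6 times in undifferentiated libraries of both genotypes, by 2.24 and 2.09 times in differentiating WT and by 1.34 and 1.07 times in differentiating KO MSCs. Each of these ratios moved in the same direction in both genotypes and was farther from its starting value in KO.

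**Figure D3:**
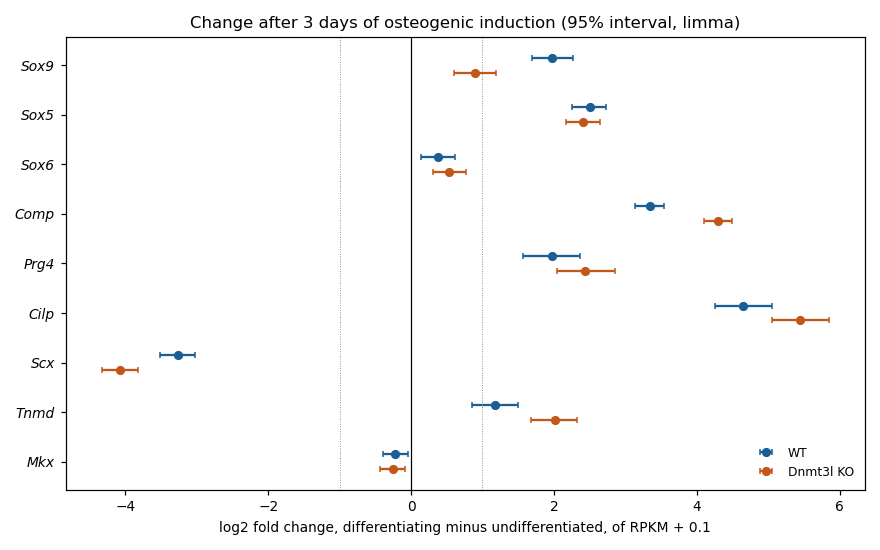
Log2 fold change of RPKM + 0.1 between differentiating and undifferentiated MSCs for the 9 tested genes, in WT (blue) and *Dnmt3l* KO (orange). Bars are 95% intervals from limma and dotted lines mark the 2-fold limit; *Scx* lies at -3.27 and -4.08, *Cilp* at 4.65 and 5.45, and *Sox9* is the gene for which the KO point lies nearest 0 relative to WT.

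Set side by side by genotype, differences between KO and WT were smaller than those between states. Before induction 0 of the 9 tested genes passed both limits, where 1.70% of all tested genes did, and 3 passed the adjusted p alone against 32.2% of all tested genes. In KO 2 of these were higher (*Sox9* and *Sox5*, beside 14.7% of all genes) and 1 was lower (*Tnmd*, beside 17.5%). After induction 0 passed both limits, beside 3.30% of all tested genes, and 5 passed the adjusted p alone beside 40.7% of all. In KO 3 of these were higher (*Comp*, *Cilp* and *Sox5*, beside 17.8% of all genes) and 2 were lower (*Scx* and *Sox9*, beside 22.9%). For the interaction, 1 gene (*Sox9*, with the lower response in KO) passed both limits, where 6.17% of all tested genes did, 2.76% with a higher and 3.42% with a lower response in KO. On the adjusted p alone 5 passed, beside 39.4% of all. The response was the higher in KO for 3 (*Comp*, *Cilp* and *Tnmd*, beside 19.4% of all genes) and the lower for 2 (*Sox9* and *Scx*, beside 20.0%). These counts turned on single libraries. Before induction 1 passed both limits without KO replicate 2, and 1 passed the adjusted p without WT replicate 2 or either KO replicate. After induction 1 passed both limits without KO replicate 1, and the adjusted p was passed by 3 without WT replicate 1 or KO replicate 2 and by 2 without WT replicate 2. For the interaction, 0 passed both limits without undifferentiated WT replicate 2, 2 did so without differentiating WT replicate 1 or undifferentiated KO replicate 2, and 3 passed the adjusted p without undifferentiated WT replicate 1, differentiating WT replicate 2 or differentiating KO replicate 2. *Sox9* and *Sox5* were the members higher in undifferentiated KO MSCs, and of these *Sox9* had turned to lower after induction. The comparisons share libraries: undifferentiated WT, for example, is the reference of both the WT response and the first genotype comparison.

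**Figure D4:**
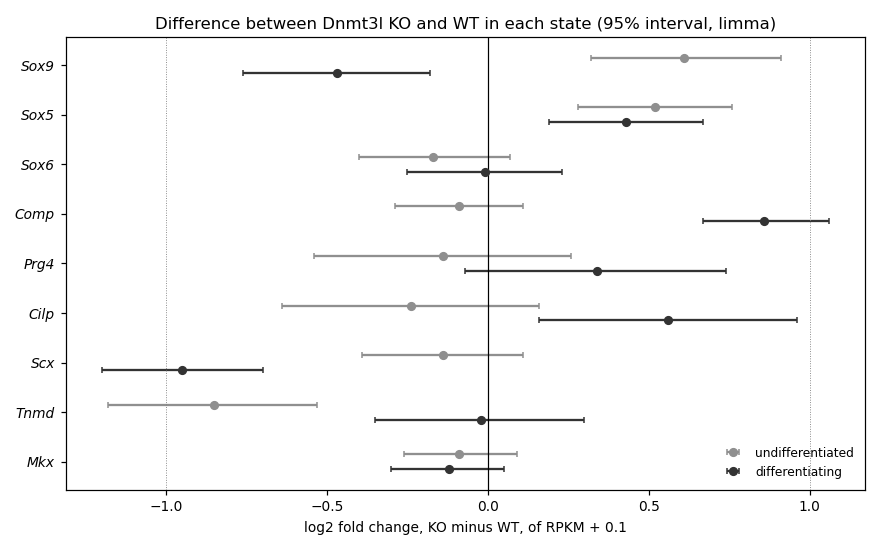
Log2 fold change of RPKM + 0.1 between *Dnmt3l* KO and WT MSCs for the 9 tested genes, undifferentiated (grey) and differentiating (black), with 95% intervals from limma; dotted lines mark the 2-fold limit. The mean values all lie within the limit, from -0.95 (*Scx*, differentiating) to 0.86 (*Comp*, differentiating), and the points of *Sox9* lie on opposite sides of 0.

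The order of the levels changed with induction. In undifferentiated WT it ran from *Scx* (mean 39.9 RPKM) through *Comp* (27.7), *Prg4* (6.97), *Tnmd* (3.66), *Mkx* (2.21), *Sox9* (1.51), *Sox6* (0.616) and *Sox5* (0.237) to *Cilp* (0.189), with *Acan* last, and the libraries of neighbouring genes did not overlap. In undifferentiated KO the order was *Scx* (36.1), *Comp* (26.0), *Prg4* (6.33), *Sox9* (2.37), *Mkx* (2.08), *Tnmd* (2.0), *Sox6* (0.538), *Sox5* (0.384), *Cilp* (0.147) and *Acan*, with *Mkx* and *Tnmd* not separated by their spread. After induction *Comp* (282 in WT, 514 in KO) and *Prg4* (27.7 and 35.2) led in both genotypes. Behind them *Tnmd* (8.39), *Cilp* (7.21), *Sox9* (6.25), *Scx* (4.04), *Mkx* (1.87), *Sox5* (1.8) and *Sox6* (0.829) followed in WT, where *Cilp* and *Sox9* overlapped, as did *Mkx* and *Sox5*. In KO the sequence was *Cilp* (10.6), *Tnmd* (8.26), *Sox9* (4.5), *Sox5* (2.47), *Scx* (2.06), *Mkx* (1.71) and *Sox6* (0.823), with no overlap of neighbours. *Scx*, the first of the 10 before induction, thus came behind *Sox9* in both genotypes and behind *Sox5* in KO.

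For each member averaging 1 RPKM or more, the genes with the most similar levels over the 8 libraries were looked up. The search covered 12269 genes of that mean level, and likeness was measured on the log2 scale of the limma fit by Pearson's r. With 4 groups of 2 libraries these values mostly reflect the group means, so they are descriptions. Closest to *Sox9* was *Ece1* (r = 0.9962), which codes for endothelin-converting enzyme, followed by *Mdga1* (0.994) and *Pcdh1* (0.9937). *Pcdh1* was at 1.08 and 0.948 RPKM in undifferentiated WT, 3.8 and 3.5 in differentiating WT, 1.46 and 1.43 in undifferentiated KO and 2.89 and 3.03 in differentiating KO, the same crossing of genotypes as *Sox9*. *Sox5* was followed by *Rhoj* (0.9991), *Angpt2* (0.999) and *Rgma* (0.9989). For *Comp* they were *Cd34* (0.9998), a surface glycoprotein of progenitor cells, the cholesterol transporter gene *Abca1* (0.9997) and the lipopolysaccharide-binding protein gene *Lbp* (0.9997). For *Cilp* they were *Slc25a30* (0.9992), *Tsc22d3* (0.9991), the glucocorticoid-induced leucine zipper gene, and *Acss3* (0.9991). *Tsc22d3* was at 34.5 and 36.4 RPKM in undifferentiated WT, 456 and 436 in differentiating WT, 29.4 and 30.5 in undifferentiated KO and 613 and 648 in differentiating KO MSCs, which had received the glucocorticoid dexamethasone in both genotypes. *Scx* was followed by *Tpm1* (0.9997), a tropomyosin of the contractile cytoskeleton, the phosphate transporter gene *Slc20a1* (0.9996) and the transferrin receptor gene *Tfrc* (0.9991). *Prg4* was most like *Ubxn7* (0.999), *Tnmd* most like *Slc1a3* (0.994), a glutamate transporter gene, and *Mkx* most like *Pcgf3* (0.9728).

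The 6 other SOX genes come from the C, D and E groups of the family, not all of which hold a member. Of the 6 genes, 5 were tested. With induction 0 rose past both limits, 3 fell in WT and 2 in KO (all genes: 4.63% lower in WT and 9.87% in KO), and the median log2 change was -1.07 and -0.33. *Sox13*, which belongs to the same group as *Sox5* and *Sox6*, rose in WT by less than 2-fold, from 0.727 and 0.696 to 1.27 and 1.06 RPKM (log2 change 0.64, SE 0.1, limma adjusted p = 0.0019). In KO it was at 1.0 and 0.999 RPKM before and 1.25 and 1.19 RPKM after induction (0.26, SE 0.1, adjusted p = 0.056). *Sox11*, a gene of neural and mesenchymal progenitors, fell in both genotypes (-3.33, SE 0.11, limma adjusted p = 3.7e-06 in WT and -3.73, SE 0.11, adjusted p = 1.4e-06 in KO). Its relative *Sox4* fell in WT from 23.1 and 24.3 to 9.2 and 8.92 RPKM, while in KO it was at 18.6 and 18.5 before and 15.8 and 19.7 RPKM after induction (-1.38, adjusted p = 7.2e-05, and -0.07, adjusted p = 0.55), a difference of 1.31 between the responses (SE 0.14, adjusted p = 0.0017). *Sox8*, which belongs to the same group of the family as *Sox9*, fell by 1.07 in WT and by 1.18 in KO from levels under 0.3 RPKM.

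Of the other cartilage matrix genes, 18 were in the table and 13 were tested. With induction 7 rose and 0 fell past both limits in WT, and 6 rose and 2 fell in KO, where 9.69% of all tested genes rose and 4.63% fell in WT and 13.0% rose and 9.87% fell in KO. The median log2 change of the list was 1.17 and -0.09. The rises were led by *Crispld1* (4.87 in WT, 5.11 in KO, limma adjusted p = 1.2e-06 and 5.3e-07) and by the matrilin genes *Matn4* (3.0 and 3.14) and *Matn2* (2.25 and 2.75), whose products link matrix fibres. Another matrilin gene, *Matn3*, went the other way (-0.99 in WT and -1.78 in KO, limma adjusted p = 0.0035 and 0.00017). *Matn3* and *Chst11* (-1.31) were the 2 genes that fell past both limits in KO. *Vit*, which codes for vitrin, was at 9.96 and 11.0 RPKM in undifferentiated WT, 30.5 and 29.3 in differentiating WT, 7.75 and 7.84 in undifferentiated KO and 48.4 and 53.0 in differentiating KO, so that its KO response was the larger by 1.18 (adjusted p = 0.00077), as for *Comp*. Between genotypes, 1 of 13 passed both limits before induction, beside 1.70% of all genes (*Chad*, 1.12, SE 0.27, adjusted p = 0.026, from levels under 0.3 RPKM, and up to 0.106 without single libraries of undifferentiated WT or without undifferentiated KO replicate 2). After induction 2 were higher and 1 was lower in KO past both limits, beside 3.30% of all genes in either direction. *Hapln1*, which codes for the link protein that ties aggrecan to hyaluronan, was at 0.911 and 0.965 RPKM in differentiating WT and 0.258 and 0.245 in differentiating KO (-1.56, SE 0.11, adjusted p = 0.00074), having been at 0.339 and 0.385 in undifferentiated WT and 0.316 and 0.315 in undifferentiated KO. *Crispld1* (1.0, adjusted p = 0.0019) and *Lect1* (1.32, SE 0.27, adjusted p = 0.012) were those higher in KO. Of these, *Crispld1* was already higher in KO before induction (0.76, SE 0.11, limma adjusted p = 0.0052), and its responses differed by 0.24 (adjusted p = 0.27). *Lect1* codes for chondromodulin, the closest relative of tenomodulin, and was at 0.217 and 0.173 RPKM in differentiating WT and 0.563 and 0.72 in differentiating KO, a call lost without replicate 2 of either group (up to 0.242 over the alternatives).

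Of the chondrocyte signalling and transcription genes, 13 of 16 were tested, and past both limits 0 rose and 1 fell in WT (*Runx3*, -1.04, limma adjusted p = 0.0025), while 1 rose and 3 fell in KO. Beside these counts, 14.3% of all tested genes passed both limits in WT and 22.9% in KO. On the adjusted p alone 6 rose and 2 fell in WT and 5 rose and 4 fell in KO, where 64.4% and 72.9% of all genes passed, and the median log2 change was 0.14 and -0.01. In KO, *Mef2c*, a regulator of chondrocyte hypertrophy, rose by 1.06 (adjusted p = 2.3e-05), while *Runx3* (-1.62), the BMP receptor gene *Bmpr1b* (-1.71) and *Gdf5* (-1.08) fell. *Gdf5*, a growth factor gene of the embryonic joint and of tendon, was at 0.193 and 0.194 RPKM in undifferentiated WT and 0.559 and 0.687 in undifferentiated KO (1.3, SE 0.18, adjusted p = 0.0047), and at 0.233 and 0.166 in differentiating WT and 0.272 and 0.21 in differentiating KO. *Ihh*, *Pthlh* and *Barx2* stayed below 0.1 RPKM in every library.

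Among other tendon and ligament genes, 14 of 16 were tested, and past both limits 4 rose and 1 fell in WT while 6 rose and 0 fell in KO (all genes: 9.69% and 4.63% in WT, 13.0% and 9.87% in KO). The median log2 change of the list was 0.21 and 0.79. *Thbs4*, a relative of *Comp* in the thrombospondin family, rose by 2.57 in WT and 1.62 in KO (limma adjusted p = 1e-05 and 3.8e-05). It was already higher in KO before induction (0.861 and 0.968 RPKM in WT, 2.51 and 2.41 in KO, log2 difference 1.34, SE 0.11, adjusted p = 0.0011), when *Comp* was not. *Klf4* (1.63 and 1.39) and *Ebf3* (1.23 and 1.7) rose in both genotypes. Before induction 1 gene (*Thbs4*) was higher and 2 were lower in KO past both limits, which 1.70% of all genes passed in either direction. The lower ones were *Egr1* (-1.25, SE 0.1, adjusted p = 0.00084) and *Egr2* (-1.83, SE 0.07, adjusted p = 0.0001), immediate early genes whose products act in tendon matrix formation. *Egr2* was at 6.69 and 6.61 RPKM in undifferentiated WT, 1.82 and 1.78 in undifferentiated KO, 2.17 and 2.03 in differentiating WT and 1.37 and 1.24 in differentiating KO. Both were also lower in KO after induction (*Egr1* -0.83, adjusted p = 0.0024, and *Egr2* -0.65, adjusted p = 0.0015). On the adjusted p alone 9 of the 14 genes were lower in undifferentiated KO, beside 17.5% of all genes.

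Of the 11 enzymes and inhibitors that act on aggrecan, COMP and the joint matrix, 5 rose and 1 fell past both limits in each genotype (all genes: 9.69% and 4.63% in WT, 13.0% and 9.87% in KO). *Adamts15*, an aggrecanase gene, rose from at most 0.0352 RPKM in undifferentiated libraries to 0.637 and 0.509 in WT and 2.13 and 2.56 in KO (2.53 and 4.27, limma adjusted p = 5e-05 and 3.6e-06), and was higher in differentiating KO by 1.86 (SE 0.17, adjusted p = 0.0012). *Mmp3*, the stromelysin gene, was also higher in differentiating KO (1.39, SE 0.15, adjusted p = 0.0016), at 1.3 and 1.38 RPKM against 0.485 and 0.414. It was already higher in KO before induction (0.86, SE 0.15, limma adjusted p = 0.0088), and its responses differed by 0.54 (adjusted p = 0.088). *Adamts1* (2.26 and 2.33) and the collagenase gene *Mmp13* (2.33 and 3.06) rose in both genotypes. *Timp3*, which codes for an inhibitor of these enzymes, fell from 1380 and 1390 to 150 and 144 RPKM in WT and from 883 and 850 to 112 and 110 RPKM in KO (-3.23 and -2.96). Before induction 6 of the 11 genes were lower in KO on the adjusted p alone, beside 17.5% of all genes. Of these, *Mmp13* was past the 2-fold limit (-1.12, SE 0.1, adjusted p = 0.0011), and *Timp3* differed by -0.67 (SE 0.04, adjusted p = 0.00037).

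**Figure D5:**
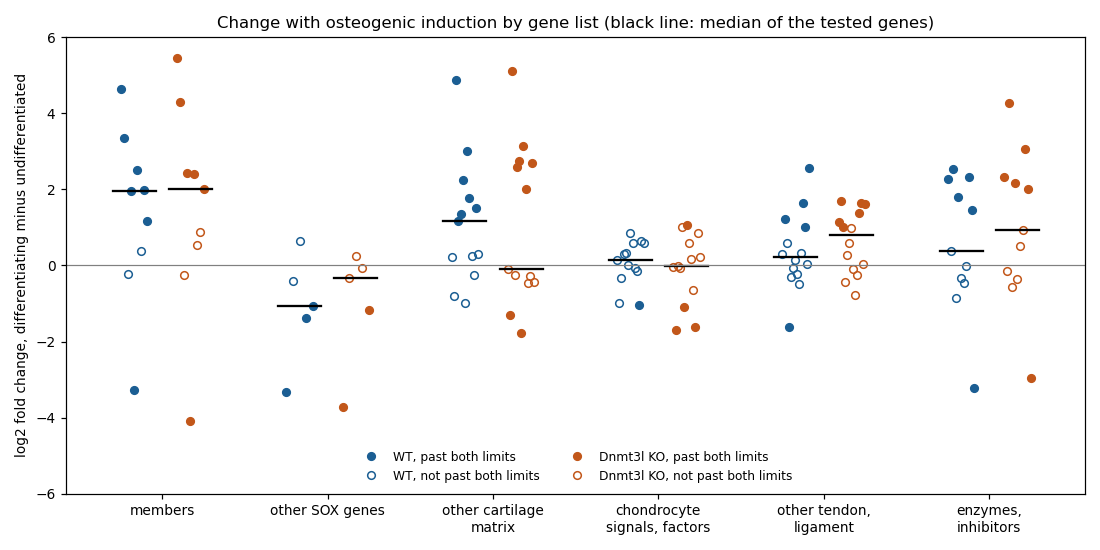
Log2 fold change with osteogenic induction for the tested genes of the 10 described genes and of 5 related lists, in WT (blue) and *Dnmt3l* KO (orange). Each point is a gene, filled if it passed an adjusted p of 0.05 and the 2-fold limit, and black lines are medians of the tested genes; the medians of the described genes lie at 1.97 and 2.01, and those of the other SOX genes at -1.07 and -0.33.

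Markers of other cell types and of proliferation moved along with these genes in the same libraries. Counts of markers are of genes past both limits, which with induction 9.69% of all genes passed upwards and 4.63% downwards in WT and 13.0% and 9.87% in KO, and which 1.70% passed in either direction between genotypes before induction and 3.30% after it. The 7 smooth muscle and pericyte markers, which include the contractile genes *Acta2* and *Tagln*, summed to 3630 to 3850 RPKM in undifferentiated WT, 659 to 750 in differentiating WT, 3880 to 3910 in undifferentiated KO and 255 to 368 in differentiating KO, the same order as *Scx* in differentiating cells. Fat cell markers, 5 of 6 tested of 7 higher past both limits in each genotype, went from 46.5 to 48.6 up to 366 to 370 RPKM in WT and from 52.7 to 55.0 up to 359 to 392 RPKM in KO, mostly through *Fabp4*. Of 15 proliferation markers 3 fell and 1 rose in WT and 14 fell in KO, with summed levels of 371 to 380, 294 to 317, 528 to 530 and 133 to 169 RPKM in undifferentiated WT, differentiating WT, undifferentiated KO and differentiating KO. Of the 12 osteoblast genes 1 rose (*Ibsp*) and 1 fell (*Sp7*) past both limits in each genotype. The 12 genes summed to 647 to 653, 1410 to 1510, 544 to 556 and 725 to 846 RPKM in the same order of groups, most of it *Ibsp* and *Spp1*. Macrophage and leukocyte markers, of which 12 of 13 were tested, were low, at 22.1 to 22.6, 35.5 to 40.7, 10.3 to 11.3 and 14.4 to 15.7 RPKM in sum, with 5 lower in KO before and 7 after induction. The skeletal muscle list summed to 35.2 to 36.1, 5.07 to 5.7, 47.3 to 49.0 and 2.59 to 2.69 RPKM, nearly all of it *Acta1*, and the endothelial list to between 3.54 and 6.0 RPKM. The 12 stromal markers had 3 genes higher and 0 lower in WT and 4 higher and 1 lower in KO with induction. Between genotypes, 0 proliferation markers and 0 smooth muscle and pericyte markers passed both limits before induction. After it, 12 of 15 and 3 of 7 were lower in KO. Of the osteoblast genes 2 were lower in KO before induction and 1 after it, and of the skeletal muscle genes 0 and 1. Fat cell, endothelial and stromal markers had 0 in both states. On the adjusted p alone, 4 of the 12 osteoblast genes were lower in KO before induction and 8 after it, with 0 higher in either state. Of all tested genes, 17.5% and 22.9% were lower. The median log2 difference of the osteoblast genes was -0.2 before and -0.58 after induction. The part of these cell type and growth differences in the levels of the 10 genes was not tested.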

How the data were processed

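RNA of 8 libraries was depleted of ribosomal RNA and sequenced as strand-specific single-end reads. The authors aligned reads to mm10 with the iGenomes annotation and deposited Cuffdiff RPKM values per gene and library; the submitters' processing notes name TopHat2 2.1.0, Cuffdiff and Cufflinks 2.2.1. The library scaling of Cuffdiff is not given in the sources used here. Groups were taken from the sample labels, and 0 columns of per-sample values were without a sample. RPKM gives no read counts: of 4977 low values in 1197 genes, 62.6% came out as whole reads within 0.05 (10% by chance), too few for a count test, and these steps gave the depth.

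From there, log2(RPKM + 0.1) of the 15342 genes averaging 0.1 RPKM or more was fitted with a mean for each group in all 8 libraries, using limma 3.58.1 (R 4.3.3) with a variance trend (4 residual and 1.98 prior degrees of freedom). The interaction is the KO response minus the WT response. P-values were adjusted over all tested genes by Benjamini-Hochberg, and a call needed an absolute log2 change above 1 with an adjusted p under 0.05, or the adjusted p alone where stated. The fit was tested on simulated data. Replicate numbers were not used as pairs.

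Genes named were the 10 members, up to 4 called genes per list and comparison with the largest change, genes that overlap a member, the 3 genes most like each member (not all are printed), and *Dnmt3l*; 1 gene that the rule selects is not reported here. The marker sums, *Sox13*, *Matn3*, *Chst11*, *Fabp4*, *Acta2*, *Tagln*, *Ibsp*, *Sp7* and *Spp1* were named after their values were seen. So were the endothelial and skeletal muscle genes and those below 0.1 RPKM. The members and the 13 other lists were chosen with earlier results of these data known. In all, 89 alternatives were tried: pseudocount, filter, scaling, variance trend, replicate block, fold limit, a fit of 4 libraries and each library left out. Positions are from GENCODE vM21, promoter sequences from RefSeq (GRCm38.p6). Python 3.11.15, numpy 2.4.6, pandas 2.3.3, scipy 1.17.1 and matplotlib 3.10.9 were used. Intervals and floors cover only the stated errors.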

Additional observations from a re-analysis of the deposited data

Results flagged for a closer look

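For 5 of the 9 tested members the response to induction differed between the genotypes by the interaction test (limma, adjusted p under 0.05). The KO minus WT response was -1.08 for *Sox9*, 0.96 for *Comp*, 0.79 for *Cilp*, -0.81 for *Scx* and 0.83 for *Tnmd* on the log2 scale. *Comp*, *Cilp* and *Scx* changed more strongly in KO in the direction of the WT change, *Tnmd* rose further from a lower start, and *Sox9* rose less.

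Of the 25 genes that the naming rule took from the 5 related lists, 14 also differed in this test. The KO minus WT response was 1.31 for *Sox4*, which fell in WT, and -1.41 for *Hapln1*, which rose in WT. It was 1.23 for *Lect1*, 0.5 for *Matn2* and 1.18 for *Vit* among the matrix genes, and -1.1 for *Gdf5* and -0.72 for *Bmpr1b* among the signalling genes. Among the tendon genes it was 1.18 for *Egr2*, -0.95 for *Thbs4*, -0.24 for *Klf4* and 0.48 for *Ebf3*. For the enzymes and the inhibitor it was 0.73 for *Mmp13*, 1.74 for *Adamts15* and 0.27 for *Timp3*. The adjusted p of 5 of these was lost under alternatives: that of *Lect1* in 10 of 15 (up to 0.477), of *Klf4* in 6 of 16 (up to 0.103), of *Ebf3* in 5 of 16 (up to 0.071), of *Timp3* in 3 of 16 (up to 0.0694) and of *Gdf5* in 3 of 15 (up to 0.0582). Among the members it was lost for *Cilp* (up to 0.118) and *Tnmd* (up to 0.066). Most of these genes were named for a large change in some comparison, and this test was among the comparisons used. It selected *Sox4*, *Hapln1*, *Lect1*, *Vit*, *Gdf5*, *Egr2* and *Adamts15*, so the count of 14 was partly fixed by the choice. Of all tested genes, 39.4% passed the same test. Groups of 2 libraries are too small to look for an outlying value.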

How the results depend on the processing

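For the members, 0 calls of induction past both limits were lost, and the differences of *Comp* and *Scx* after and of *Tnmd* before induction passed the adjusted p in every fit. Without a fold limit, 3 members passed before induction, 5 after it and 5 in the interaction. The interaction count past both limits was 0 at a pseudocount of 1 and 2 under quantile normalization, and a fit of only the 4 libraries left 2 members past the adjusted p for genotype after induction. With a library left out, members past both limits numbered 0 to 1 for genotype before induction, 0 to 1 after it and 0 to 2 for the interaction, and those past the adjusted p 1 to 3, 2 to 5 and 3 to 5. The lone library left in a group is then assumed to vary like the other groups.

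Signs turned only for values near 0: *Sox6* after induction to 0.042 without WT replicate 1 and 0.045 without KO replicate 1 (range with a library left out -0.064 to 0.045), *Tnmd* after induction to 0.019 without WT replicate 1 (range -0.063 to 0.019), the interaction of *Sox5* to 0.146 at a pseudocount of 1, and that of *Mkx* to 0.004, 0.013 and 0.028 without undifferentiated WT replicate 2, differentiating WT replicate 2 and undifferentiated KO replicate 1 (range -0.097 to 0.028). The adjusted p of *Sox9* and *Sox5* for genotype after induction was 0.0703 and 0.0669 in a fit of 4 libraries, and that of *Sox5* before induction 0.0788 at a pseudocount of 1. The cause of these moves was not tested. Centring each library on its median level, which lay -0.058 to 0.052 from the mean of the medians, changed no call of a member.

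Same-numbered replicates did not deviate together (correlations of replicate differences between groups of -0.092 to 0.03). A replicate block left the counts of members past both limits as they were. It took *Cilp* after induction (0.557, adjusted p = 0.0606), its interaction (0.794, adjusted p = 0.0615) and the WT response of *Mkx* (-0.229, adjusted p = 0.053) over the threshold.

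Of 58 values of genes that the naming rule took from related lists, 0 turned sign and 51 passed the adjusted p in every fit. The others were *Chad*, *Lect1* in both of its genotype results, and the interactions of *Gdf5*, *Klf4*, *Ebf3* and *Timp3*. The number of reads behind a value is estimated, and values listed at 0, as for *Acan* in 1 differentiating library of each genotype, can be failed estimates.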
